A study of Mus musculus with 5 samples.

Results

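The genes described here are the expressed protein-coding genes that start between 66 and 80 Mb of mouse chromosome 14 (GRCm38), from Ephx2 at 66084374 to Sugt1 at 79587691. They were chosen on measured values of these same samples, as a run of neighbours with lower levels in C3G KO than in WT embryonic stem (ES) cells, so every KO against WT value of a member is a description and carries no test. A gene entered when its mean over the 5 samples was at least 2 TPM (a read share per transcript length, summing to the same total in every sample) as deposited. This gave 55 members of the 9052 protein-coding genes at that level in the whole table, of which 325 lie on chromosome 14. The interval holds 113 annotated protein-coding genes. Of these, 56 were below 2 TPM, and Fgf17 and Rb1 were left out of the members although they reached it.

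Genes that lie side by side on a mouse autosome mostly have promoters of their own and encode proteins with unrelated tasks, so a chromosomal neighbourhood is not a pathway. The products of this stretch include the growth-related protein TCTP (Tpt1), regulators of mitosis such as Repo-Man (Cdca2) and the PP2A subunit B55-alpha (Ppp2r2a), the nuclear exportin Xpo7, the m6A cofactor Zc3h13, the TRAIL receptor (Tnfrsf10b) and the procollagen C-proteinase Bmp1. C3G, encoded by Rapgef1 on chromosome 2, is an exchange factor that activates the small GTPase Rap1 and takes part in adhesion and growth factor signalling.

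The samples were total RNA of E14Tg2a, an established mouse ES cell line, as 3 WT and 2 C3G KO (C3G-/-) samples. In the KO cells part of Rapgef1 was replaced by a puromycin resistance marker through genome editing, and the labels do not name the clone behind either KO sample. Both groups were grown on gelatin in serum with LIF, the cytokine that holds ES cells in self-renewal, and neither was treated. The study describes the samples as independent, and no label says that they came from separate cultures, so the spread between them may be technical.

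Values below are TPM summed per gene and divided by a median-of-ratios factor for each sample, called scaled TPM. Each KO mean is also given as a percent of the WT mean. Rapgef1, which is no member, had scaled TPM of 8.66, 8.45 and 8.73 in WT 1 to 3 and 6.34 and 6.13 in C3G KO 1 and 2. Its log2 difference, KO minus WT on log2(scaled TPM + 1), was -0.41 (SE 0.059), with a limma adjusted p = 0.00444 over 12518 genes, of which 30.7% passed. Once dependence on the length and GC content of transcripts was removed, the difference was -0.11, with a limma adjusted p = 0.239, so the call on the targeted gene was lost. The sum over all Rapgef1 transcripts also counts reads outside the replaced part. All 7 ES cell markers, among them Pou5f1 and Nanog, were at 1 scaled TPM or more in every sample. The sums of all marker lists differed between the groups without overlap. The ES cell list summed to between 1613 and 2038 scaled TPM in WT and between 2492 and 2816 in KO. This came mostly from Dppa5a, at 979, 1173 and 1288 in WT and 2023 and 1713 in KO, while Pou5f1 overlapped between the groups. The neural list ran from 12.2 to 13.9 in WT and from 23.2 to 25.5 in KO, mostly from Tubb3, with Neurog2 at 0 throughout, and the endoderm list from 1.54 to 1.81 and from 2.99 to 3.37. Lower in KO, as the members were, stood the mesoderm list, at 5.43 to 6.67 in WT and 2.68 to 3.82 in KO, and the list for fibroblasts or feeder cells, at 4.03 to 4.67 and 2.83 to 3.20. The mesoderm sum fell mostly through T, at 4.25, 3.27 and 3.90 in WT and 0.91 and 1.46 in KO, while Eomes overlapped. In the fibroblast list Pdgfra was higher in KO, at 0.35, 0.32 and 0.45 in WT and 1.21 and 1.64 in KO, and the other genes were lower. The part of these differences in the results was not tested. Small RNA genes took between 63.2% and 67.6% of the deposited TPM in WT, 78.5% in KO 1 and 69.8% in KO 2, which is the main reason for scaling. TPM hold no read counts, so the depth behind each value is unknown.

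All 55 members had lower scaled TPM in both KO samples than in every WT sample, and no member overlapped or exceeded WT. Over all 9052 genes at this level, 29.4% were lower without overlap. The median member stood at 40.4% of WT, with quartiles of 31.6% and 46.4% and a range from 5.31% for Bmp1 to 68.2% for Ephx2. All 55 had a log2 difference under -0.5, against 8.36% of all such genes. Since the members were chosen on this contrast, nothing is read from these shares. In bulk samples, fewer cells that express a gene and less RNA per cell cannot be told apart. DNA of these cells was not analysed here.

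Most members differed from WT by a like factor. Below 25% of WT there were 4 members, from 25% to 33% there were 14, from 33% to 50% there were 29, and from 50% to 75% there were 8. The lowest WT sample was above the highest KO sample by a median ratio of 2.27, from 1.38 for Ephx2 to 15.99 for Bmp1, and this ratio was over 2 in 37 members. Both KO samples carried the shift at the same size, with member medians of 40.1% of WT in KO 1 and 40.5% in KO 2. The ratio of KO 2 to KO 1 had a median of 0.983 over the members, from 0.69998 for Dok2 to 1.37 for Naa16, and was above 1 in 24 of them. Over all genes this ratio had a median of 1.01, with 5th and 95th percentiles of 0.801 and 1.26. The WT samples differed little, with a median coefficient of variation of 5.15%, from 0.312% for Xpo7 to 19.2% for Dok2.

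**Figure D1:**
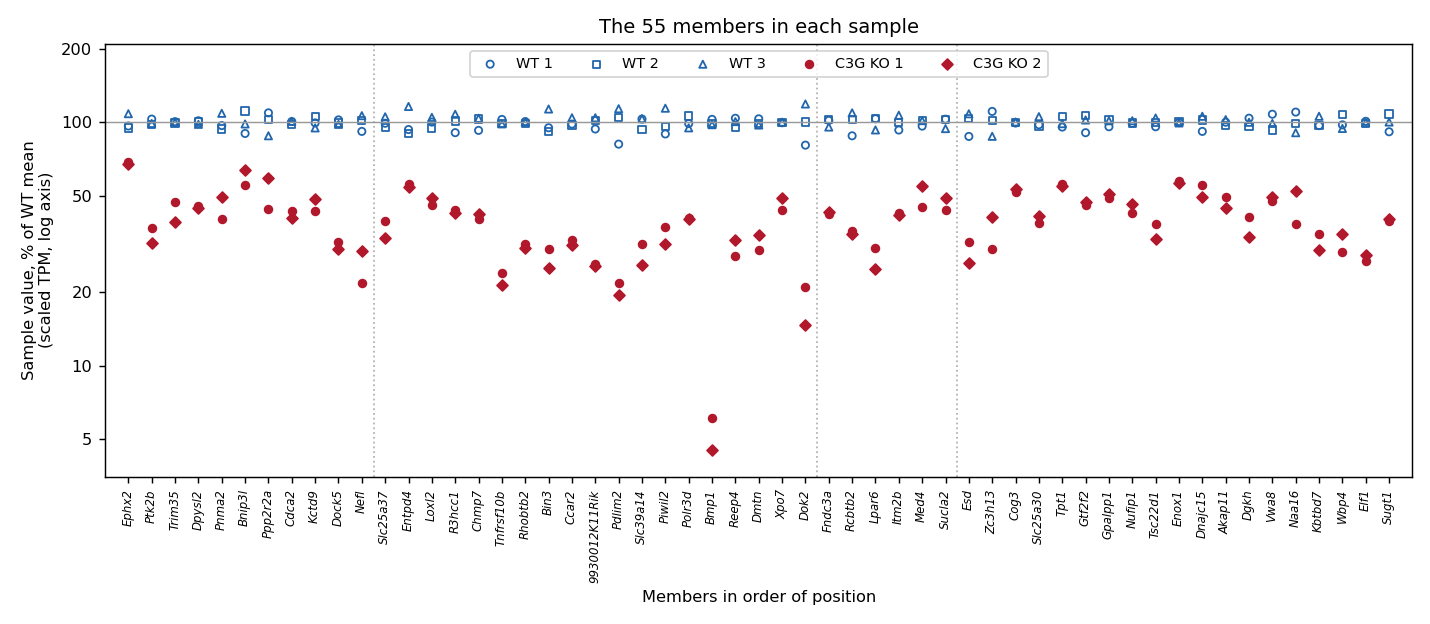
The scaled TPM of each member in each sample as a percent of that gene's WT mean (log axis), in order of position from Ephx2 to Sugt1, with WT samples as open blue and KO samples as filled red symbols. Dotted lines part the 4 stretches that gaps between gene starts set off. Every red symbol lies under every blue symbol of its gene, and Bmp1 is the lowest at 5.31% of WT.

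Members at the bottom of the range served unrelated tasks. Bmp1 (70474558 to 70520234, minus strand), the protease that trims procollagens and activates lysyl oxidase, had scaled TPM of 3.54, 3.41 and 3.36 in WT and 0.21 and 0.15 in KO. Its KO values were thus near 0, and its log2 difference of -1.91 understates the change because of the pseudocount of 1. Dok2, a docking protein that recruits RasGAP, had scaled TPM of 4.95, 6.16 and 7.31 in WT and 1.29 and 0.91 in KO, or 17.9% of WT. Its WT samples were the most scattered of any member and still did not meet the KO samples. Pdlim2, a PDZ and LIM domain protein of the actin cytoskeleton, stood at 20.7% of WT. Tnfrsf10b, the death receptor for TRAIL, had scaled TPM of 11.3, 10.8 and 10.8 in WT and 2.63 and 2.35 in KO, or 22.7% of WT. These 4 were the members below 25% of WT, and all of them lie between 69.2 and 70.8 Mb, within the stretch from Slc25a37 to Dok2.

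The order by log2 difference brought up members with higher levels. After Bmp1, Tnfrsf10b (-1.78) and Dok2 (-1.76) came Esd (-1.69), a formylglutathione hydrolase, and Slc39a14 (-1.66), the zinc and iron importer ZIP14. The next were Dmtn (-1.46), the actin-bundling protein dematin, Nefl (-1.45), the neurofilament light chain, and Tsc22d1 (-1.44), a TGF-beta responsive leucine zipper protein. Then followed Reep4 (-1.41), which clears endoplasmic reticulum from mitotic chromosomes, and Ccar2 (-1.35), an inhibitor of the deacetylase SIRT1. Wbp4 (-1.34), a spliceosome protein, and Elf1 (-1.34), an ETS transcription factor, were the last of the lowest 12. Esd had scaled TPM of 33.4, 39.7 and 41.4 in WT and 12.3 and 10.04 in KO. Slc39a14 had scaled TPM of 24.0, 21.7 and 24.1 in WT and 7.34 and 6.06 in KO. In both genes the highest KO sample was under the lowest WT sample by a wide margin. The standard errors of these 12 log2 differences lay between 0.061 and 0.156, the largest that of Dok2.

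At the top of the range stood Ephx2 (66084374 to 66124500, minus strand), the soluble epoxide hydrolase, with scaled TPM of 12.7, 12.5 and 14.3 in WT and 9.04 and 8.87 in KO, or 68.2% of WT. It is the first member by position. Bnip3l, the mitophagy receptor NIX, had scaled TPM of 33.5, 41.5 and 36.7 in WT and 20.6 and 23.7 in KO, or 59.4% of WT. Enox1, a cell-surface NADH oxidase, followed at 56.9%, and Tpt1 at 55.2%. Entpd4, a nucleotide diphosphatase of the Golgi, stood at 55.1%, but it shares most of its sequence with its neighbour Entpd4b (53.1% of WT), so the split between these paralogs is uncertain. No member came back to the WT range, since the highest KO value of Ephx2 was still below its lowest WT value.

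The members covered a wide range of levels, and their choice set in advance that the shift was present at each. Tpt1, by far the most abundant member, had scaled TPM of 1072, 1183 and 1107 in WT and 627 and 611 in KO. Tpt1 has processed pseudogenes elsewhere in the genome, so its reads may be shared with them. Sugt1, an HSP90 co-chaperone needed at kinetochores, had scaled TPM of 69.8, 82.5 and 76.5 in WT and 30.0 and 30.5 in KO. Of the Sugt1 level in WT, 7.73% was assigned to the protein-coding transcript ENSMUST00000054908. The non-coding models ENSMUST00000228675 and ENSMUST00000226320 took 55.2% and 35.2%. Models not classed as protein-coding also took large shares of other members in WT. Among them were ENSMUST00000134040 with 56.7% of Tpt1, ENSMUST00000184497 with 59.8% of Slc25a37 and ENSMUST00000225251 with 66.3% of Ppp2r2a. Tsc22d1 had scaled TPM of 49.999, 52.0 and 54.3 in WT and 19.98 and 17.3 in KO. Sugt1 and Tsc22d1 stood at 39.7% and 35.7% of WT, near the members' median. At the other end of the level range, the members just above the minimum, Slc25a37 (mean 2.04 TPM as deposited), Dpysl2 (2.11) and Pnma2 (2.16), were at 36.4%, 44.9% and 44.7% of WT. In KO they lay between 0.82 and 1.23 scaled TPM, so their WT values brought them over the minimum. The genes just below it, Mtrf1 (1.97), Fam160b2 (1.68) and Lrch1 (1.54), were at 45.8%, 26.9% and 51.6%. The minimum thus parted genes with alike values.

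The members closest to the median log2 difference of -1.07 were Fndc3a (-1.07), Lpar6 (-1.08), Naa16 (-1.06), Xpo7 (-1.04) and Trim35 (-1.03). Lpar6, a receptor for lysophosphatidic acid, had scaled TPM of 2.75, 2.75 and 2.47 in WT and 0.81 and 0.66 in KO. Its interval lies inside that of Rb1 on the other strand, and strand was not stated, so reads of the pair cannot be told apart. In all 8 members overlap another expressed protein-coding gene, the longest overlap being the 24171 bases that Rcbtb2 shares with Rb1.

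Promoters are shown for 3 members, to compare the letters around the starts of genes that were lower together. The sequences come from RefSeq on GRCm38.p6, where 23 of the 55 members matched an entry, and 17 of these had one within 250 bases of the start of the leading transcript. The other 32, Gpalpp1 and all members from Ephx2 to Fndc3a, had no entry. Promoters of that first part of the interval are therefore not described. Among the 17, Cog3 had the smallest fall in log2 difference, Lpar6 lay nearest the members' median and Esd had the largest fall. Each runs 5′ to 3′ on the gene's strand from 250 bases before to 50 after the start, and capitals mark the GC box, GGGCGG or on the other strand CCGCCC. Cog3 (chr14:75754444-75754743, minus strand; a Golgi tethering subunit at 52.5% of WT), Lpar6 (chr14:73237641-73237940, plus strand; 27.7%) and Esd (chr14:74732047-74732346, plus strand; 29.2%) read as follows.
Cog3: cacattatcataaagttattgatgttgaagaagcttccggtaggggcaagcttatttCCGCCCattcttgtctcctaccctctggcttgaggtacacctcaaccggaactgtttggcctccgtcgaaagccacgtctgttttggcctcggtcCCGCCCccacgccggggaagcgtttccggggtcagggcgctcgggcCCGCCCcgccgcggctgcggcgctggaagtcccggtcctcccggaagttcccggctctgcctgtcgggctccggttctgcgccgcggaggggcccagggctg
Lpar6: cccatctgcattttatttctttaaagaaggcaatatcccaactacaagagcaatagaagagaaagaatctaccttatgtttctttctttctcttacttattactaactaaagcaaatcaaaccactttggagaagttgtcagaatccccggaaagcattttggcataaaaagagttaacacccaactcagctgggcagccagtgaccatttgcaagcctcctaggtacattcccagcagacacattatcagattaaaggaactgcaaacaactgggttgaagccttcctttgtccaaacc
Esd: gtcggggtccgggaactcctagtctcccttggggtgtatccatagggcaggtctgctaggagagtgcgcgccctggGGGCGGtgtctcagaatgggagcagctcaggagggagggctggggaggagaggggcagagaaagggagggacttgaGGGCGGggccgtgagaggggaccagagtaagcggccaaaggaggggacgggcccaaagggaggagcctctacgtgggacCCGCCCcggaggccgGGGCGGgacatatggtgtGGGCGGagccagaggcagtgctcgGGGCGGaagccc
The Esd window held 6 GC boxes with 68.7% G or C, the Cog3 window 3 with 64.3%, and the Lpar6 window none. All members were chosen as lower, so these windows cannot show whether a GC box goes with the shift. The 33 promoters listed for members all belong to genes from Rcbtb2 to Sugt1. Of these 33, 20 or 60.6% held a GC box, against 35.9% of all 32544 promoters and 66.1% of the 9185 promoters of expressed protein-coding genes. CCAAT or ATTGG stood in 27.3% of member promoters and 38.6% of those of expressed genes. TATAAA or TTTATA stood in 9.09% and 6.42%. A match is a run of letters and not a site shown to be bound.

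Along the interval, gaps of over 1 Mb between gene starts part the members into 4 stretches. From Ephx2 to Nefl (11 members) the median was 44.7% of WT, with a range from 25.7% to 68.2%. From Slc25a37 to Dok2 (19 members) it was 32.1%, from 5.31% to 55.1%. From Fndc3a to Sucla2 (6 members) it was 42.2%, from 27.7% to 49.9%. From Esd to Sugt1 (19 members) it was 44.2%, from 27.7% to 56.9%. The second stretch had the lowest median, and its range overlapped those of the other stretches. Its 2 KO samples had medians of 31.7% and 31.5% of WT. The running median of 9 neighbouring genes fell to 28.8% of WT at Bin3, a BAR domain protein at 70.1 Mb, and reached its highest value within the members, 49.9%, at Gpalpp1. The members of the second stretch had a median GC content of 53.8%, above the 45.1% to 48.7% of the other stretches. Over the 55 members the percent of WT had a Spearman correlation of -0.36 with GC content, 0.32 with WT level, -0.05 with transcript length and 0.03 with position, given as descriptions over genes that share the same 5 libraries. After the length and GC correction all members were still lower without overlap, with log2 differences from -1.82 for Esd to -0.49 for Entpd4.

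**Figure D2:**
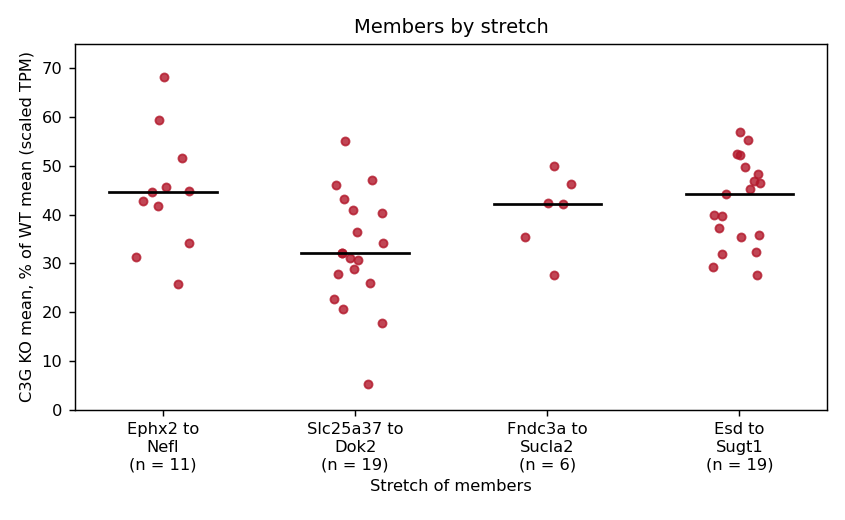
The KO mean as a percent of the WT mean (scaled TPM) for each member, 1 point a gene, grouped by stretch, with a bar at the stretch median. The bars stand at 44.7%, 32.1%, 42.2% and 44.2%, and the points of all stretches overlap.

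The lower edge at 66 Mb is not marked by a step back to WT. The 4 genes before it were Pbk at 60.8% of WT, a mitotic kinase, Esco2 at 70.3%, a cohesin acetyltransferase, Ccdc25 at 55.3% and Clu at 16.8%. Clu, the secreted chaperone clusterin, had scaled TPM of 6.48, 7.05 and 7.20 in WT and 1.23 and 1.09 in KO, lower than all members but Bmp1 in percent of WT. The first members, Ephx2 at 68.2%, Ptk2b at 34.3%, Trim35 at 42.8% and Dpysl2 at 44.9%, lay within the range of the 4 genes before the edge. Clu alone set the low end of that range, and Ptk2b, Trim35 and Dpysl2 were lower than Pbk, Esco2 and Ccdc25. Chromosome 14 from 40 to 66 Mb held 127 expressed genes with a median of 56.2% of WT, 118 of them lower without overlap, ranging from 15.3% to 210%. There the KO samples had medians of 54.1% and 57.1%, against 40.1% and 40.5% in the members. This gap between the neighbouring intervals was not tested, since both were chosen on the same contrast. In windows of 2 Mb the median was 57.2% from 62 to 64 Mb, 58.1% from 64 to 66, 44.8% from 66 to 68, 38.7% from 68 to 70 and 30.6% from 70 to 72. It then stood at 42.1%, 43.2%, 49.9% and 38.5% in the windows up to 80 Mb, where the window medians include Fgf17 and Rb1.

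The upper edge is a gap without expressed genes. The last members were Kbtbd7 at 32.4% of WT, an adaptor of CUL3 ubiquitin ligases, Wbp4 at 32.0%, Elf1 at 27.7% and Sugt1 at 39.7%. The next expressed gene, Diaph3, a formin that builds actin filaments, starts 7.07 Mb beyond Sugt1 and had 76.2% of WT. After it came Tdrd3 at 62.8%, Rpl36a-ps1 at 151% and Mzt1, a gamma-tubulin ring component, at 89.9%. Rpl36a-ps1 is annotated as protein-coding but carries the name of a pseudogene, so its reads may be shared with a parent gene. Over the 38 expressed genes after 80 Mb the median was 81.7%, with 22 (57.9%) lower and 8 higher without overlap. In the 103 genes before 40 Mb the median was 102%, with 24 (23.3%) lower and 30 higher. Over all 9052 genes 29.4% were lower. Over the 19 other chromosomes compared, median values lay between 97.9% on chromosome 7 and 109% on chromosome 13. In windows of 2 Mb with expressed genes the median lay between 30.6% and 65.5% everywhere from 40 to 80 Mb, and the members formed the distal end of this unbroken run. Beyond it the median was 69.5% from 86 to 88 Mb and 62.8% from 104 to 106 Mb, and between 74.0% and 145% in the other windows. Lower genes thus also lay beyond 80 Mb.

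**Figure D3:**
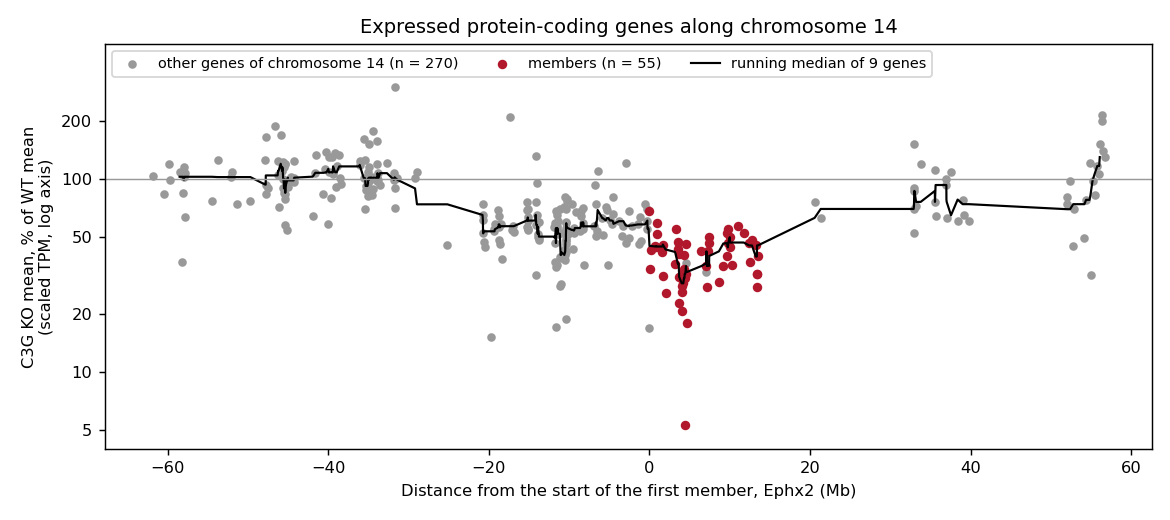
The KO mean as a percent of the WT mean (scaled TPM, log axis) for the 325 expressed protein-coding genes of chromosome 14 against the distance of each gene start from that of Ephx2 in Mb, with members in red, other genes in grey and the running median of 9 genes as a line. The line lies near 100% on the far left, mostly lower and uneven in the 40 to 66 Mb interval left of 0, whose genes had a median of 56.2%, and between 28.8% and 49.9% in the members, a range that it also entered at places left of 0 (40.4% at Ngdn).

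The genes left out of the members moved like their neighbours. Fgf17, an FGF ligand, had scaled TPM of 4.12, 4.24 and 4.84 in WT and 1.70 and 1.51 in KO, or 36.5% of WT. Rb1, the retinoblastoma tumour suppressor, had scaled TPM of 8.29, 7.24 and 6.98 in WT and 2.52 and 2.43 in KO, or 32.98% of WT. In both, all KO samples lay under all WT samples.

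Grouped by what their products do, the members were low in every group, as their choice set in advance. Of 15 listed genes for RNA and transcription 10 were members, with a median of 35.6% of WT. Zc3h13, a cofactor of the m6A methyltransferase, had scaled TPM of 7.11, 6.501 and 5.62 in WT and 1.94 and 2.60 in KO. Polr3d, a subunit of RNA polymerase III, had scaled TPM of 15.4, 16.6 and 14.8 in WT and 6.32 and 6.28 in KO. Its KO samples were nearly equal, and it stood exactly at the members' median of 40.4%. Med4 of the Mediator complex was at 49.9% and Gtf2f2, a TFIIF subunit, at 46.5%.

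Of 11 listed genes for mitochondria and metabolism 8 were members, with a median of 43.1% of WT. Sucla2, a subunit of the succinyl-CoA ligase of the citric acid cycle, had scaled TPM of 19.8, 19.8 and 18.1 in WT and 8.44 and 9.38 in KO. Slc25a37, the mitochondrial iron importer mitoferrin, was at 36.4%, and Dnajc15, a co-chaperone of the inner membrane, at 52.2%. Of 9 listed genes for membrane traffic and nuclear transport 8 were members, with a median of 42.2%. Xpo7 had scaled TPM of 20.4, 20.5 and 20.5 in WT and 8.91 and 9.96 in KO, or 46.1% of WT, with the tightest WT samples of all members. Chmp7, which starts ESCRT-III assembly at the reforming nuclear envelope, was at 41.0%, and Itm2b, a transmembrane protein that binds the amyloid precursor, at 42.1%.

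Of 10 listed genes for cell division and chromatin 6 were members, with a median of 40.8% of WT. Setdb2 and Cab39l of this list start at 59402009 and 59440972, outside the interval. Cdca2, which brings protein phosphatase 1 to anaphase chromatin, had scaled TPM of 22.2, 21.6 and 22.2 in WT and 9.50 and 8.92 in KO. Ppp2r2a had scaled TPM of 18.3, 17.1 and 14.7 in WT and 7.35 and 9.90 in KO. Its KO samples were further apart than those of Cdca2, and both were below WT. Piwil2, a Piwi protein of the piRNA pathway, was at 34.3%. Of 11 listed genes for cytoskeleton, adhesion and matrix 7 were members, with a median of 31.2%, the lowest of the lists. Beside Bmp1, Pdlim2 and Nefl it holds Dmtn (32.2%), Dock5 (31.2%), a Rac exchange factor, Dpysl2 (44.9%), a tubulin-binding protein, and Loxl2 (47.2%), a lysyl oxidase that cross-links collagen. All 7 lie from Dpysl2 to Dmtn, and Bmp1, Pdlim2, Dmtn and Loxl2 are in the second stretch, whose median was 32.1%. The list also had the lowest median WT level, 3.44 scaled TPM. The part of position or level in its median was not tested.

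Of 12 listed genes for signalling 8 were members, with a median of 34.2% of WT. Akap11, which anchors protein kinase A, had scaled TPM of 13.3, 12.9 and 13.6 in WT and 6.51 and 5.89 in KO. Dgkh, a diacylglycerol kinase, was at 37.3%, and Rhobtb2 at 31.1%. The 8 members in no list had a median of 43.9%, from 26.0% for 9930012K11Rik to 68.2% for Ephx2, with Ptk2b, the focal adhesion kinase relative PYK2, at 34.3% and Trim35, a RING ubiquitin ligase, at 42.8%. Medians of the 6 lists thus lay between 31.2% and 43.1% of WT, beside 101% for all 9052 genes, and the ranges of the lists overlapped.

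Single transcripts are parts of genes chosen on this contrast, so their values are descriptions too. With a mean of at least 1 scaled TPM, 100 transcripts of 53 members could be followed, and 96 of them were lower in KO without overlap. Their median was 42.2% of WT, and none was higher without overlap. The share of all transcripts at this level that were lower was not computed, so nothing is read from the count. The 4 transcripts that overlapped were short non-coding models of Slc39a14, Sucla2, Sugt1 and Tpt1. The Sugt1 model ENSMUST00000227497 was listed at 0, 0 and 3.85 scaled TPM in WT and had 2.78 and 2.83 in KO, and was the only transcript above its WT mean. In 24 members at least 2 transcripts passed this minimum. Among these, the Vwa8 transcript ENSMUST00000227255 made up 32.4% of its gene in WT and 40.4% in KO, and the Sugt1 model ENSMUST00000226320 made up 35.2% in WT and 26.4% in KO. These transcripts were chosen after their values were seen, and shares between overlapping models are estimates.

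Genes of the interval that the rule did not admit were examined with a minimum of 0.5 mean TPM as deposited, a limit chosen after the values were seen. All 15 protein-coding genes between this limit and 2 TPM were lower in KO without overlap, with a median of 33.8% of WT. The share of all genes between these limits that were lower was not computed, so nothing is read from this count. A limit on the mean of all samples also admits genes through their WT values alone. The lowest of the 15 was Stmn4, a stathmin, with scaled TPM of 0.85, 1.12 and 1.03 in WT and 0.02 and 0.02 in KO, or 1.91% of WT. Sorbs3, the vinculin-binding protein vinexin, had scaled TPM of 1.90, 1.75 and 2.05 in WT and 0.16 and 0.18 in KO, or 8.92%. Hr, the hairless corepressor, was at 13.8%, and the highest was Serp2 at 67.1%. Stmn4, Sorbs3 and Hr thus stood as low as the lowest members, at levels near 1 TPM where a few reads set the value.

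Processed pseudogenes of the interval were less uniform. Of 6 above the limit, 2 were lower and 1 was higher without overlap. Rps2-ps6 had scaled TPM of 10.2, 13.4 and 13.4 in WT and 15.97 and 16.5 in KO, or 132% of WT, and lies at 76.2 Mb among members at 35.7% to 56.9%. Rps2, the ribosomal protein gene on chromosome 17 that it copies, was at 131%. Cbx3-ps6 was at 117%, and Cbx3 on chromosome 6 at 123%. Reads can be shared between such near-identical copies, so the values of these pseudogenes are uncertain. Of the non-coding RNAs, AC093020.1 was at 42.0% and E130202H07Rik at 60.8%, while Gm49164 was higher without overlap at 152%, with scaled TPM of 0.45, 0.58 and 0.62 in WT and 0.68 and 0.99 in KO. All values of Gm49164 were thus below 1, and its interval contains that of Cbx3-ps6 on the other strand, so its difference is uncertain too. Snora31, a snoRNA within Tpt1, had scaled TPM of 30.8, 20.9 and 27.3 in WT and 15.3 and 7.01 in KO, or 42.4% of WT. Gm49164 and Rps2-ps6 were the genes of the interval above the limit whose KO samples both exceeded all WT samples.

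**Figure D4:**
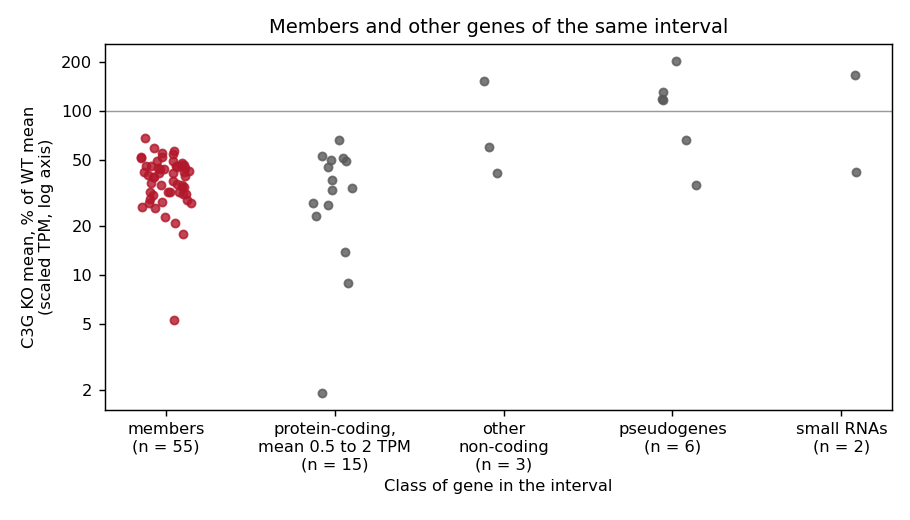
The KO mean as a percent of the WT mean (scaled TPM, log axis), 1 point a gene, for the 55 members in red and for other genes of the interval by class in grey, with a line at 100%. Members and the 15 protein-coding genes of lower level lie under the line, and pseudogenes, other non-coding RNAs and small RNAs lie on both sides, with Gm23823, listed at 0 in every WT sample, not drawn.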

How the data were processed

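Values were TPM estimated per transcript by the authors from paired-end reads and deposited as 1 table of 142647 transcripts in 5 samples; per the labels the submitters' processing notes name bcl2fastq 2.20, FastQC 0.11.7, STAR 2.5.1b and RSEM 1.2.31, with GRCm38. TPM carry no depth, and a share lost to small RNA lowers all other genes, so values were rescaled. Transcripts were matched to GENCODE M21 (141524 matched, 1123 not) and summed per symbol. Each sample was divided by its median-of-ratios factor. Genes with at least 1 TPM in at least 2 samples (12518, all 55 members among them) entered limma 3.58.1 in R 4.3.3 on log2(scaled TPM + 1) with a mean-variance trend and Benjamini-Hochberg adjustment at 0.05, on 3 WT and 2 KO samples without covariates, a procedure tested on simulated data. The methods' count test needs counts and was not run on TPM. Folds are on the log2(value + 1) scale, and percents use no pseudocount. The members and gene lists were chosen with earlier results of these data known. Text names the lowest 12 members by log2 difference, the first and last 4 and the 4 genes beyond each edge, the most abundant members, those at the level minimum and nearest the median, and examples of each list. Alternatives were other scalings, pseudocounts of 0.1 and 5, level limits, protein-coding transcripts only, a length and GC correction (loess, span 0.5), a replicate block and leaving out each sample.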

Additional observations from a re-analysis of the deposited data

How the results depend on the processing

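All members stayed lower in KO without overlap under every alternative in which this was counted, and none overlapped or exceeded WT. The members' median log2 difference was -1.07 and kept its sign throughout. It was -1.616 with TPM as deposited, -1.271 with a pseudocount of 0.1, -0.649 with a pseudocount of 5, -1.031 with protein-coding transcripts only, -0.9836 with the length and GC correction and -1.033 with members from a mean of 1 TPM (63 genes). The ratio of group means without a pseudocount, an alternative chosen after seeing the data, gave -1.308. Quantile normalization gave -1.045, factors from genes outside chromosome 14 gave -1.071, and leaving out each sample gave -1.098 to -1.057. The count of members with a log2 difference under -0.5, 55 as reported, was 40 with a pseudocount of 5, 51 with protein-coding transcripts only and 53 to 55 with a sample left out. With members from a mean of 5 TPM both counts were 33 of 33, since fewer genes then count as members. A pseudocount pulls low genes toward no change by construction, and deposited TPM hold the larger small RNA share of the KO samples. For other settings that moved the median the cause was not tested.

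With a replicate block the median was -1.098, and with the replicate block and the length and GC correction it was -1.013, with 53 and 52 members under -0.5. Counts of overlap use no fit and were not computed for the block. The deviations of same-numbered samples from their group means correlated at -0.18 for number 1 and 0.181 for number 2. With 2 KO samples these deviations mirror each other, so the correlations cannot show whether the numbers pair the samples. No label gives same-numbered samples a shared source, so the main fit left them unpaired.

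The Rapgef1 log2 difference fell out of significance with the length and GC correction, at -0.1147 (limma adjusted p = 0.239), and with the replicate block plus that correction, at -0.08387 (limma adjusted p = 0.475). Over its other alternatives it lay between -1.015 and -0.2777, with limma adjusted p from 0.000304 to 0.0276. The cause was not tested. With 2 KO samples and no read counts, the precision of members near 2 TPM is unknown.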
